A study of Homo sapiens with 6 samples.

Results

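The genes described here are the 5 CEACAM adhesion glycoproteins CEACAM1, CEACAM5, CEACAM6, CEACAM7 and CEACAM19, among 57445 genes of a count table from H358 cells, an established human lung cancer line. They were chosen by gene symbol, after their read counts in the mutant clones and the parental cells had been compared. Their differences between the clones and the parental line are therefore given as a description and carry no test. Of the 5 genes, 4 had counts and passed the filter on low counts, while CEACAM7 had a count of 0 in every library.

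RNA was sequenced in 6 libraries, 2 each from C1, C2 and WT cells. C1 and C2 are isogenic H358 clones in which BRMS1, a gene named for its suppression of breast cancer metastasis, carries the BRMS1v2 change A273V on both copies. WT is the parental line with wild-type BRMS1. The study compared the clones with WT to see how expression differs in cells with the variant. C1 and C2 are each 1 clone, and the labels do not say how they were made. All 6 libraries came from cells grown in RPMI with 10% FBS. The labels number the libraries of each group 1 and 2 without saying whether these were separate cultures, so every p-value reflects only the scatter among these samples, which may be technical. Gene counts summed to between 27527867 and 37146270 per library. Levels are given as CPM, read counts scaled to a common library total after TMM correction for library make-up.

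CEACAM proteins belong to the immunoglobulin superfamily and hold neighbouring cells together by binding to each other through their outermost domain. CEACAM5, known as CEA, CEACAM6 and CEACAM7 are tied to the membrane by a glycosylphosphatidylinositol (GPI) anchor, whereas CEACAM1 spans the membrane and has a long form whose tail carries inhibitory signalling motifs. CEACAM5 is a serum marker of colorectal and other adenocarcinomas, CEACAM6 is made by many lung adenocarcinomas, CEACAM7 is a gene of the gut and pancreatic ducts, and CEACAM19 is a little studied, more distant member. Some other relatives are genes of blood cells, and the pregnancy-specific glycoproteins (PSG genes) are a placental branch of the same family on the same chromosome.

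CEACAM5, CEACAM6, CEACAM7 and CEACAM1 lie in one stretch of chromosome 19, and the sequences just before their starts are shown because these genes are close relatives that behaved differently in H358. Each runs 250 bases up to the transcription start and is given 5′ to 3′ on the gene's own strand from RefSeq on GRCh38.p14. The E-box form CACGTG, the only form searched, is in capitals where present. CEACAM5 is at chr19:41708376-41708625 on the plus strand, CEACAM6 at chr19:41755280-41755529 on the plus strand, CEACAM7 at chr19:41688271-41688520 on the minus strand and CEACAM1 at chr19:42528482-42528731 on the minus strand.
CEACAM5: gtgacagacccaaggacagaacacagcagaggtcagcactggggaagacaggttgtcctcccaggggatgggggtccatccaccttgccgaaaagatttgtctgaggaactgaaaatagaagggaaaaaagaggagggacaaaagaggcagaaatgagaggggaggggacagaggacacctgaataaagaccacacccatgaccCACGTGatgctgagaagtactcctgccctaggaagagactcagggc
CEACAM6: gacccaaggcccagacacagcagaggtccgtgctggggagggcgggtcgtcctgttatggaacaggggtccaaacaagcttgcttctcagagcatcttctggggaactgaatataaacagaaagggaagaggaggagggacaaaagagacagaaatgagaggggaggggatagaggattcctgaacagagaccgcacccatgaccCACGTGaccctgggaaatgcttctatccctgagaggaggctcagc
CEACAM7: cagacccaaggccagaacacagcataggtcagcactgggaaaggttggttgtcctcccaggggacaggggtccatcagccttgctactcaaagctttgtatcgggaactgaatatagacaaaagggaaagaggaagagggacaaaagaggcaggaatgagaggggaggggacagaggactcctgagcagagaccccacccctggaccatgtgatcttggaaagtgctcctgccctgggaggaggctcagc
CEACAM1: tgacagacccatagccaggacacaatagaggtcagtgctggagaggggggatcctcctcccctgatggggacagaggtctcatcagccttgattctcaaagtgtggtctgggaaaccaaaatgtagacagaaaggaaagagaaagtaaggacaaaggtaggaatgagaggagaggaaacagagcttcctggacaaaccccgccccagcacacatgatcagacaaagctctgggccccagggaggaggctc

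The E-box form CACGTG reads the same on both strands. It begins 46 bases before the CEACAM5 start and 45 bases before the CEACAM6 start. These letters are not in the CEACAM7 or CEACAM1 windows. Of 34943 RefSeq promoter windows of the same length, 6.32% hold them. Other forms of the E-box were not searched, so whether the CEACAM7 and CEACAM1 windows hold one is not stated here. The AP-1 motif TGANTCA, searched on both strands and found in 6.59% of the windows, is in none of the 4, and the GC box GGGCGG, also searched on both strands and found in 42.5%, is in CEACAM1 and CEACAM6. The CEACAM7 window was 80.5% identical to that of CEACAM5 and 79.9% identical to that of CEACAM6, although CEACAM7 had no count, and CEACAM5 and CEACAM6 were 74.6% identical to each other. The windows of CEACAM1 shared 66.2% to 71.9% with the others. A motif match here describes letters and says nothing on whether a factor binds.

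The transcripts are more alike still, which limits how surely a read can be given to 1 gene. Over 951 bases the coding sequences of CEACAM5 and CEACAM6 were 91.2% identical, and their longest exact match is shown because, at 65 bases, it is longer than the 50-nt reads.
Bases 752 to 816 of both coding sequences: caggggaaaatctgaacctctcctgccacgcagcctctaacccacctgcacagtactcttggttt

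Of all distinct 50-base stretches in the annotated transcripts, 16.3% of those of CEACAM5, 6.99% of CEACAM6, 4.28% of CEACAM1, 1.86% of CEACAM19 and 0% of CEACAM7 occur exactly in another gene. Only 1.15% of the CEACAM5 stretches occur in CEACAM6. All these percents are for single stretches, while the reads came in pairs, and how pairs were placed was not examined. Most of the shared part of CEACAM5, 15.2%, lies in an overlapping locus that the table lists as CEA and that had a count of 0 in every library. CEACAM19 shares 121 exon bases with PVR on the same strand, and CEACAM1 shares 185 with the antisense gene LIPE-AS1, which had between 49 and 103 counts per library. The strand setting of the counting is not given in the sources used here, so reads from these overlaps, and reads from the near-identical stretches, are uncertain in their gene.

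The GPI-anchored CEACAM5 had the highest mean level per base of transcript in the clones, though CEACAM6 exceeded it in replicate 1 of each. It had 480 CPM in C1 replicate 2 and 115 CPM in C1 replicate 1. In C2 it had 342 CPM in replicate 2 and 70.4 CPM in replicate 1, against 70.2 CPM in WT replicate 2 and 20.3 CPM in WT replicate 1. Every C1 and C2 library was above both WT libraries, but C2 replicate 1 only just exceeded WT replicate 2. The means were 297 ± 258 CPM in C1, 206 ± 192 CPM in C2 and 45.3 ± 35.3 CPM in WT (SD, n = 2 each). The difference from WT came to 2.72 on the log2 scale in C1 (SE 1.07) and 2.19 in C2 (SE 1.05), which is 6.57-fold and 4.56-fold. It moved with single libraries when the replicate number was not fitted. In C1 it was 1.36 without C1 replicate 2 and 3.88 without WT replicate 2. In C2 it was 0.61 without C2 replicate 2 and 3.35 without WT replicate 2. With the replicate number also fitted, leaving out single libraries gave 2.45 to 2.83 in C1 and 1.84 to 2.23 in C2.

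CEACAM6, the other GPI-anchored member with counts, stood farthest from WT. Its level was 336 CPM in C1 replicate 2 and 151 CPM in C1 replicate 1. C2 had 223 CPM in replicate 2 and 115 CPM in replicate 1, against 35.5 CPM in WT replicate 2 and 21.7 CPM in WT replicate 1. The lowest clone library, at 115 CPM, was still well above the highest WT library, at 35.5 CPM. Mean levels were 244 ± 131 CPM in C1, 169 ± 76.6 CPM in C2 and 28.6 ± 9.75 CPM in WT (SD, n = 2 each). On the log2 scale this was 3.09 above WT in C1 (SE 0.53) and 2.56 in C2 (SE 0.52), or 8.52-fold and 5.9-fold.

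CEACAM1, the transmembrane member with an inhibitory tail, differed less. C1 had 97.2 CPM in replicate 2 and 87.8 CPM in replicate 1, and C2 had 151 CPM in replicate 2 and 82.1 CPM in replicate 1, against 73.9 CPM in WT replicate 2 and 51.9 CPM in WT replicate 1. Neither clone overlapped WT, and C2 replicate 2 was the highest of the 6 libraries. How many of all tested genes separate in this way was not counted. With 2 libraries per group the separation is only a description, here and for CEACAM5 and CEACAM6. The log2 difference from WT was 0.56 in C1 (SE 0.33) and 0.89 in C2 (SE 0.33). These are counts per gene, so the long and short forms of CEACAM1 were not separated.

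CEACAM19 overlapped between the groups. It had 61.6 CPM in C1 replicate 2 and 37.6 CPM in C1 replicate 1, 63.0 CPM in C2 replicate 2 and 33.1 CPM in C2 replicate 1, against 43.2 CPM in WT replicate 2 and 31.3 CPM in WT replicate 1. Its log2 difference from WT, 0.41 in C1 (SE 0.39) and 0.37 in C2 (SE 0.39), was close to its error. CEACAM7, with a count of 0 in all 6 libraries, allows at most 0.0848 to 0.105 CPM per library by the limit of 3 counts, so it was not detectable at this depth in any group.

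**Figure D1:**
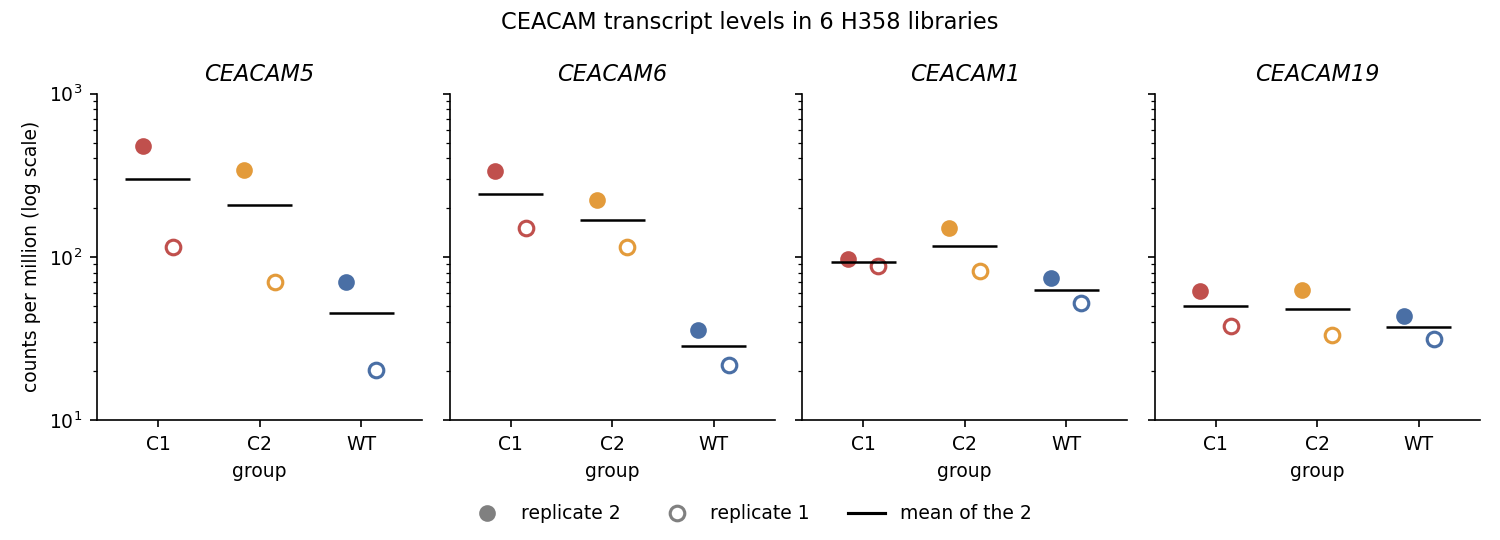
Level of each CEACAM gene in every library, in CPM on a log axis. Filled points are replicate 2, open points replicate 1 and bars the mean of the 2, with C1 and C2 left of WT. CEACAM5 and CEACAM6 sit above WT in both clones, CEACAM19 overlaps between groups, and each filled point is above the open point of its group. CEACAM7, at 0 throughout, is not drawn.

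By mean CPM per kilobase of transcript, the order was the same in both clones. In C1 it was 88.7 for CEACAM5, 79.9 for CEACAM6, 16.7 for CEACAM1 and 9.54 for CEACAM19. In C2 it was 61.5 for CEACAM5, 55.3 for CEACAM6, 21.1 for CEACAM1 and 9.23 for CEACAM19. The WT order was 13.5 for CEACAM5, 11.4 for CEACAM1, 9.37 for CEACAM6 and 7.16 for CEACAM19. CEACAM5 and CEACAM6 did not differ beyond their spread in any group: per kilobase CEACAM5 was higher in replicate 2 of all 3 groups and CEACAM6 in replicate 1 of all 3. In the clones every CEACAM6 value lay above every CEACAM1 value, the lowest being 37.6 in C2 and the highest CEACAM1 value 27.4, also in C2. In WT these neighbours overlapped.

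Of the 4 members with counts, 0 were called against WT in either clone by edgeR's quasi-likelihood test without a term for the replicate number, where 0.0117% of all 17129 tested genes were called in C1 and 0.0117% in C2. Same-numbered libraries deviated together, so the number was also fitted as a replicate block. With it, 2 members were called higher in C1 (CEACAM5 and CEACAM6), where 2.96% of all genes were called higher and 4.07% lower. In C2, 3 members were called higher (CEACAM5, CEACAM6 and CEACAM1), where 1.94% of all genes were called higher and 2.59% lower. Nothing is read from these counts, since the same contrast selected the members. The blocked differences were close to the unblocked ones, at 2.64 in C1 and 2.04 in C2 for CEACAM5, 3.02 and 2.52 for CEACAM6, 0.59 and 0.86 for CEACAM1, and 0.39 and 0.31 for CEACAM19, with errors of 0.16 to 0.18. In bulk RNA, fewer cells with a transcript and less transcript per cell cannot be told apart.

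C2 was then compared with C1, a contrast that did not choose the members, to see whether the clones differ. No member was called: of all tested genes 0% were called by the test without the block and 0% with it, while 61 genes without the block and 642 with it had an unadjusted p under 0.05, and DESeq2 also called 0. CEACAM5 averaged 206 CPM in C2 and 297 CPM in C1, a log2 difference of -0.53 with a 95% interval of -3.0 to 1.95. With the block it was -0.59, with an interval of -0.92 to -0.26 and an adjusted p of 0.77 in edgeR. For CEACAM6 the blocked value was -0.50 with an interval of -0.83 to -0.17 and an edgeR adjusted p of 0.93. Leaving out replicate 2 or replicate 1 of WT from the blocked fit, which leaves 1 residual degree of freedom, turned CEACAM5 into a call, at -0.60 with adjusted p-values of 0.036 and 0.027 in edgeR. The blocked interval was -0.12 to 0.66 for CEACAM1 and -0.43 to 0.29 for CEACAM19. Within replicate numbers CEACAM5 was lower in C2 by 0.49 on the log2 scale in replicate 2 and by 0.71 in replicate 1, and CEACAM6 by 0.59 in replicate 2 and by 0.40 in replicate 1.

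**Figure D2:**
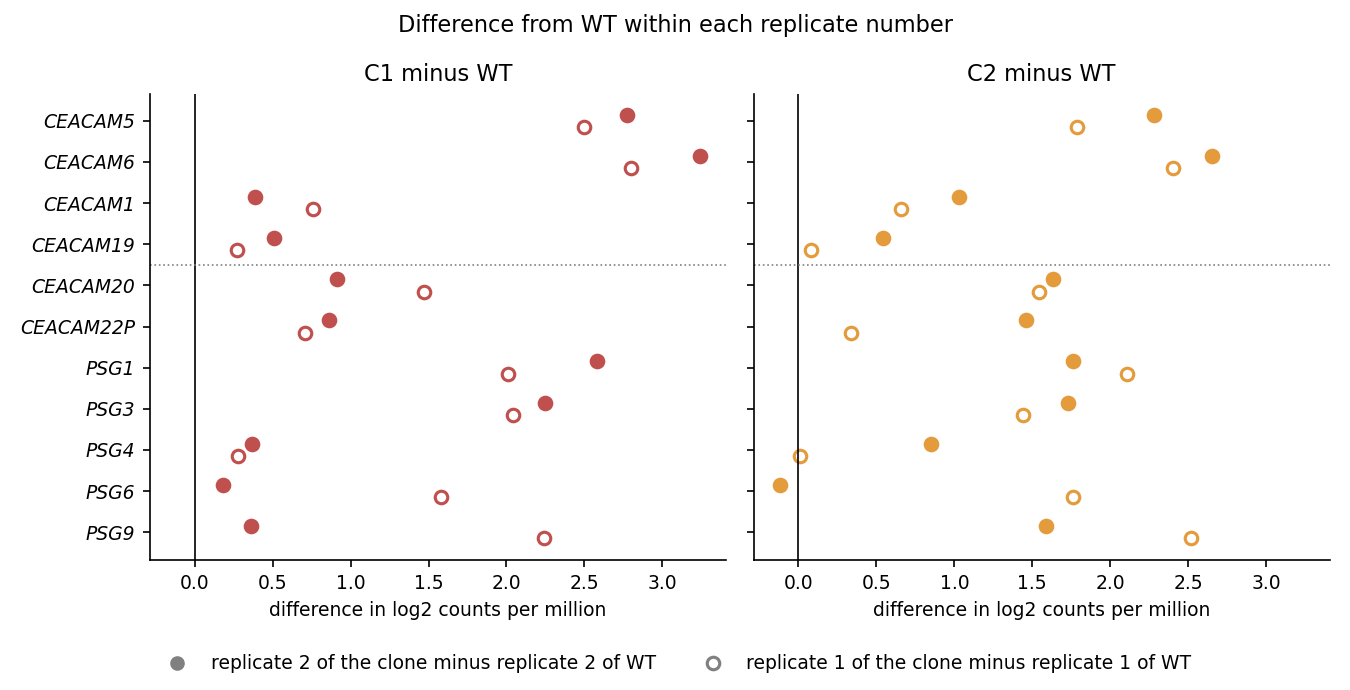
Difference in log2 CPM between each clone and WT, within replicate 2 (filled) and within replicate 1 (open). Rows are the 4 CEACAM genes described here above the dotted line and 7 other family genes below it. CEACAM6 and CEACAM5 lie 1.79 to 3.24 above WT, PSG1 and PSG3 1.44 to 2.58 above it, and CEACAM19 between 0.08 and 0.54.

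The members also differed between the replicate numbers, which is not the contrast that selected them. A list holding CEACAM5 and CEACAM6 was already known to be higher in replicate 2 when the members and tests were chosen, so these p-values are not independent evidence of that direction. All 4 were called higher in replicate 2 than in replicate 1 by edgeR's quasi-likelihood test with the groups as a block, against 12.5% of all tested genes called higher and 12.2% lower. CEACAM5 rose by 2.05 on the log2 scale (SE 0.13, adjusted p = 9.7e-07, 4.14-fold), placing it at rank 128 of 17129 genes by size. By group its replicate 2 exceeded replicate 1 by 2.06 in C1, 2.28 in C2 and 1.79 in WT, so the gap between libraries of 1 group was close to the gap between C2 and WT. CEACAM6 rose by 0.95 (SE 0.13, adjusted p = 0.0002), with 1.15 in C1, 0.96 in C2 and 0.71 in WT. CEACAM19 rose by 0.70 (SE 0.14, adjusted p = 0.0029) and CEACAM1 by 0.51 (SE 0.15, adjusted p = 0.023). CEACAM1 was the least even, at 0.15 in C1, 0.88 in C2 and 0.51 in WT. Without replicate 1 of C2, or without replicate 2 of C2, the CEACAM1 value was 0.33 (adjusted p = 0.27) and the CEACAM19 value 0.59 (adjusted p = 0.11), and both calls were lost; CEACAM5 and CEACAM6 stayed called.

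Of 24 genes of cell division, 9 were called lower in replicate 2 and 0 higher, beside 12.2% and 12.5% of all genes, and 15 did not pass the test. Their median was -2.02 against 0 over all genes. Their summed level was 805 CPM in C1, 1670 CPM in C2 and 1870 CPM in WT in replicate 2, against 4410 CPM in C1, 5220 CPM in C2 and 4740 CPM in WT in replicate 1. MCM4, part of the helicase that opens DNA for replication, fell by 1.98 (SE 0.15, edgeR adjusted p = 7.8e-06). The part of proliferation, or of anything else the replicate number marks, in the CEACAM values was not tested.

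**Figure D3:**
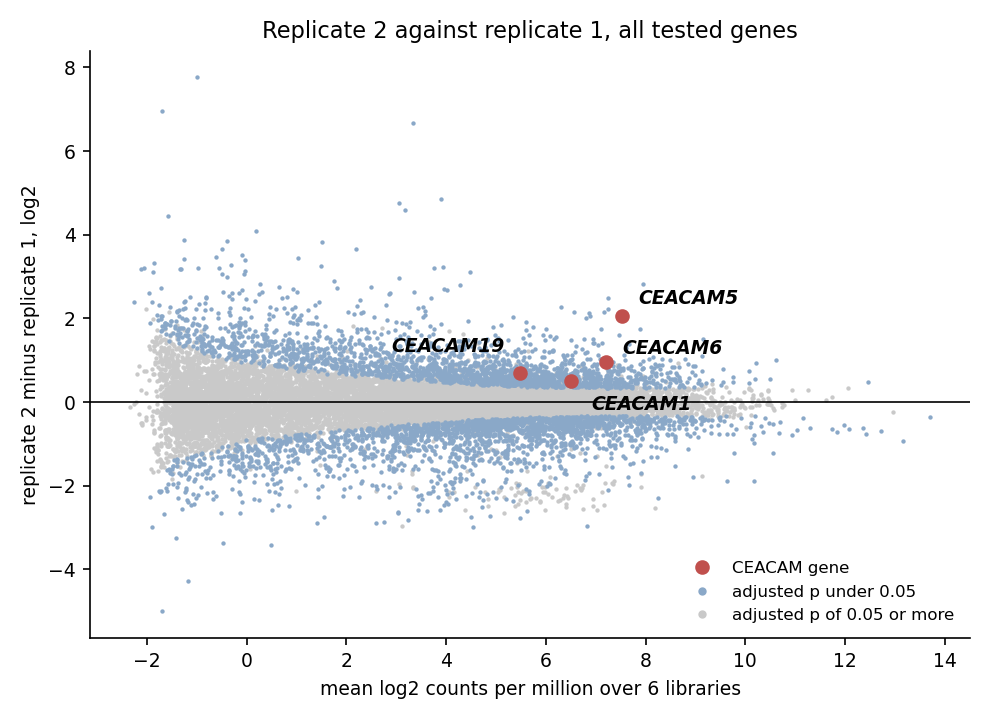
Difference between replicate 2 and replicate 1 on the log2 scale, plotted against the mean level of each of 17129 tested genes. Blue points pass an adjusted p of 0.05, grey points do not, and red points are the CEACAM genes. CEACAM5 stands at 2.05, CEACAM6 at 0.95, CEACAM19 at 0.70 and CEACAM1 at 0.51.

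The make-up of the summed CEACAM counts differed between groups and between replicates. CEACAM1 supplied 10.6% of the counts of CEACAM5, CEACAM6 and CEACAM1 in C1 replicate 2 and 24.8% in C1 replicate 1, 21.1% in C2 replicate 2 and 30.7% in C2 replicate 1, against 41.2% in WT replicate 2 and 55.3% in WT replicate 1. All 4 clone libraries were below both WT libraries, a description that rests on the same contrast as the choice of genes. CEACAM5 counts were 1.43 times those of CEACAM6 in C1, 1.53 times in C2 and 1.98 times in WT in replicate 2, against 0.76 in C1, 0.613 in C2 and 0.934 in WT in replicate 1. The ratio was thus above 1 in replicate 2 of every group and below 1 in replicate 1 of every group, 2.15 times higher on average in replicate 2 (lowest 1.88, highest 2.5). An exact two-sided sign-flip test over these 3 pairs gave p = 0.25, the smallest that 3 pairs allow.

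**Figure D4:**
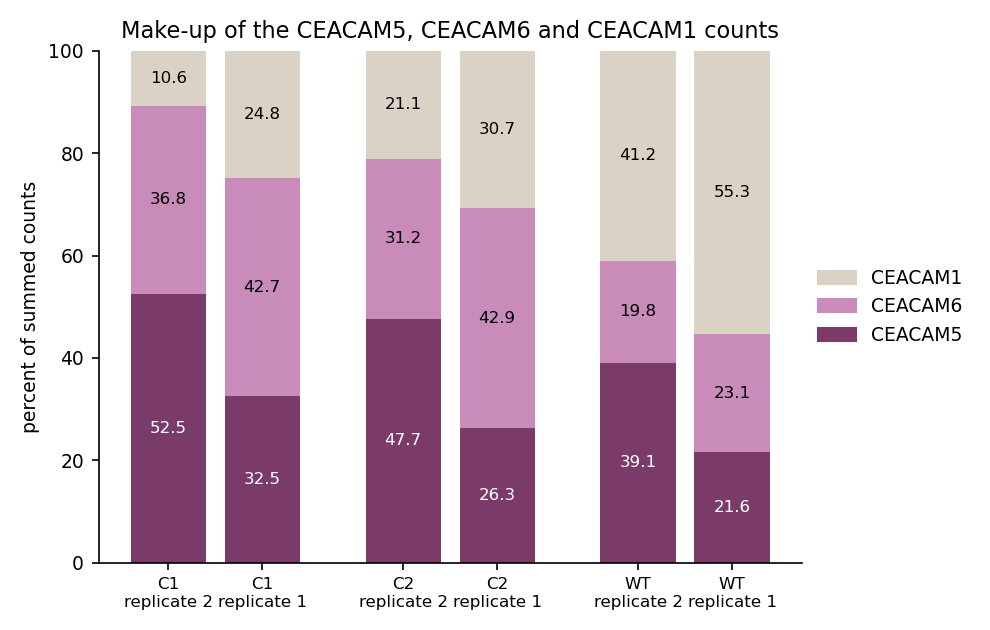
Percent of the summed counts of CEACAM5, CEACAM6 and CEACAM1 that each gene supplied, by library, with C1 and C2 left of WT and replicate 2 left of replicate 1. CEACAM1 supplied 10.6% to 30.7% in the clone libraries and 41.2% to 55.3% in WT, and CEACAM5 a larger percent in replicate 2 of each group.

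Beyond the 5 genes, 7 other family genes passed the filter: CEACAM20, the pseudogene CEACAM22P, and PSG1, PSG3, PSG4, PSG6 and PSG9. A gene that is low in WT could pass only through the clones, so their count gives no support by itself. CEACAM3, CEACAM8 and CEACAM16 had at most 4 counts summed over a group, and CEACAM4, CEACAM18 and CEACAM21 had 0. PSG3, a placental secreted glycoprotein, averaged 39.9 ± 13.0 CPM in C1, 27.3 ± 9.95 CPM in C2 and 8.86 ± 2.04 CPM in WT (SD, n = 2 each). With the replicate block it was 4.44-fold higher in C1 (SE 0.18 on the log2 scale, adjusted p = 2.1e-05) and 3.02-fold higher in C2 (SE 0.18, adjusted p = 0.00027) in edgeR. PSG1 was called too, by 2.45 log2 units in C1 and 2.08 in C2, from means of 2.43 CPM in C1, 1.9 CPM in C2 and 0.442 CPM in WT. CEACAM20 was called at 1.25 in C1 and 1.64 in C2 and PSG9 at 2.00 in C2, both from low levels. Blocked calls thus numbered 3 of 7 in C1 and 4 of 7 in C2, none lower. Of all genes, that test called 2.96% higher in C1 and 1.94% in C2. The test without the block called 0 of the 7 in each clone, with an unadjusted p under 0.05 for 5 in C1 and 5 in C2. Among all 17129 genes, 1348 in C1 and 1156 in C2 reached that unadjusted p. Beside 270 and 209 of all genes, DESeq2 called 2 of the 7 in C1 and 4 in C2. Leaving out either C2 library from the blocked fit left 1 call in C1 and 0 in C2. PSG transcripts share 16.5% to 34.6% of their 50-base stretches with other genes where this was computed, so reads from those stretches are uncertain in their gene. PSG3 was also called higher in replicate 2 (0.64, SE 0.15, adjusted p = 0.0065); the other 6 were not.

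RPS19, a ribosomal protein gene and the nearest tested gene after CEACAM5, CEACAM6 and CEACAM7, differed from WT by -0.03 in C1 and -0.15 in C2 on the log2 scale (SE 0.14 each, blocked fit), and neither was called. Between CEACAM7 and CEACAM1 in gene order lie 22 tested genes outside the family, with a median difference of 0.05 in C1 and -0.01 in C2. By the blocked test, 1 of them was called higher and 1 lower in C1, and 1 higher and 0 lower in C2. Among all genes 2.96% were called higher and 4.07% lower in C1, and 1.94% higher and 2.59% lower in C2. PVR, an adhesion receptor that lies before CEACAM19 and overlaps it, differed by 0.19 in C1 and 0.04 in C2 and was not called. BCL3, a nuclear partner of NF-kB that lies after CEACAM19, differed by -0.06 in C1 and -0.19 in C2 and was called between replicates, at 0.47 (SE 0.15, adjusted p = 0.039). CD177, the nearest tested gene after CEACAM1 and PSG genes, was at 0.10 in C1 and 1.44 in C2 with errors of 0.93 and 0.88. Nothing was called for the antisense or clone-based loci next to CEACAM1 and CEACAM5.

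Values for genes that act with the CEACAM proteins are from edgeR with the replicate block, against medians over all tested genes of -0.01 in C1 and 0 in C2. Their counts of calls stand beside 2.96% of all genes called higher and 4.07% lower in C1, and 1.94% higher and 2.59% lower in C2. Without the block none of the partner, regulator, anchor or adhesion genes named was called. The enzymes that make and attach GPI anchors, which CEACAM5 and CEACAM6 need, gave no call. Of 30 such genes 29 were tested, and with the block 0 were called in C1 and 0 in C2, with medians of -0.04 and -0.03 on the log2 scale. An unadjusted p under 0.05 was reached by 5 of the 29 in C1 and 3 in C2, beside 3649 and 3258 of all 17129 genes in the same fit. DESeq2 called 0 of the 29. PIGW, an acyltransferase of the anchor precursor, stood at -0.67 in C1 and -0.54 in C2, GPAA1, a subunit of the transferase that attaches the anchor, at -0.34 in C1 and -0.48 in C2. PIGC, a subunit of the enzyme that begins the anchor, was at 0.43 in C1 and 0.38 in C2, and PGAP3, a remodelling enzyme, at 0.56 in C1 and 0.26 in C2. Of these, PIGW was called between replicates, at -0.73. Of 26 tested genes for other GPI-anchored surface proteins, 5 were called higher and 2 lower in C1, and 4 higher and 3 lower in C2, with medians of 0.13 and 0.12. PRSS8 (prostasin, a membrane protease) rose by 1.05 in C1 (adjusted p = 0.018) and stood at 0.72 in C2 (adjusted p = 0.096), while LY6D stood at -2.29 in C1 and -1.24 in C2 and GPC1 at -1.72 and -1.05, none of them called. The gene CPM (not the unit) stood at 0.69 in C1 (adjusted p = 0.077) and rose by 0.94 in C2 (adjusted p = 0.028) in the blocked edgeR fit. PRSS8 and the gene CPM were also called between replicates, at 0.81 and -0.52.

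Among 19 tested partners and signalling genes of the CEACAM proteins, 2 were called higher and 2 lower in each clone with the block, with medians of 0.14 in C1 and 0.18 in C2. INSR, the insulin receptor that CEACAM1 is known to help internalize in liver, rose by 1.25 in C1 (adjusted p = 0.021) and by 1.13 in C2 (adjusted p = 0.046). LGALS3, a galectin that binds CEACAM sugars, rose by 0.84 in C1 (adjusted p = 0.0037) and 0.57 in C2 (adjusted p = 0.041). CAV1, the caveola scaffold, fell by 1.15 in C1 (adjusted p = 0.0008) and by 1.03 in C2 (adjusted p = 0.0022). When each library in turn was left out of the blocked fit, the CAV1 call held in 6 of 6 fits in C1 and 4 in C2, that of LGALS3 in 4 and 3, and that of INSR in 3 and 3, with no change of sign. LGALS3 and CAV1 were also called between replicates, at 0.88 and -1.35. ITGB3, an integrin subunit, stood at 1.89 in C1 and 1.03 in C2, with errors of 0.68 and 0.70, and was not called in either clone, but was called between replicates, at 2.62.

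Of 20 tested genes reported to regulate CEACAM transcription, with medians of 0.03 in C1 and 0.13 in C2, 2 were called higher and 0 lower in C1, and 1 higher and 1 lower in C2, beside the same shares of all genes. IRF2, an interferon regulatory factor, rose by 0.57 in C1 (adjusted p = 0.048) and 0.73 in C2 (adjusted p = 0.02). HIF1A, the hypoxia factor, rose by 0.56 in C1 (adjusted p = 0.045) and stood at 0.57 in C2 (adjusted p = 0.055). JUNB, an AP-1 subunit, stood at -0.49 in C1 (adjusted p = 0.19) and fell by 0.81 in C2 (adjusted p = 0.049). These calls were fragile: with single libraries left out, IRF2 kept its call in 1 of 6 fits in C1 and 4 in C2, HIF1A in 2 in C1 and JUNB in 3 in C2. HIF1A and JUNB were also called between replicates, at 1.01 and 0.67. TGFB1, a cytokine, was at -1.06 in C1 and -1.27 in C2 and was not called.

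Of 20 tested genes for other adhesion molecules of epithelia, with medians of 0.12 in C1 and 0.09 in C2, 1 was called higher and 2 lower in C1, and 0 higher and 1 lower in C2. PVRL1 (nectin-1) fell by 1.56 in C1 (adjusted p = 0.00014) and by 1.13 in C2 (adjusted p = 0.0018), and DSP, the desmosomal plaque protein, fell by 1.08 in C1 (adjusted p = 0.0047) and stood at -0.44 in C2. The C1 calls of PVRL1 and DSP held in 6 of 6 fits that left out a library, and the C2 call of PVRL1 in 4. PVRL1 was also called between replicates, at -0.82, and DSP, at -0.11, was not. By the blocked edgeR test F11R was called higher in C1, at 0.65 (adjusted p = 0.022), and stood at 0.52 in C2 (adjusted p = 0.073). Its C1 call was lost in most fits that left out a library, while its difference ran from 0.46 to 0.85. EPCAM, which mediates contacts between epithelial cells, was at 0.50 in C1 and 0.49 in C2, neither called.

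The markers of H358 were those of an epithelial line with lung features in part. The 6 epithelial markers summed to between 5150 and 7340 CPM per library. NKX2-1, the transcription factor of distal lung, had 65.1 to 155 CPM, LAMP3 11.1 to 15.6, NAPSA 2.88 to 8.21 and AGER 3.37 to 7.3. Other lung markers were near or at 0. SFTPA1, SFTPA2, SFTPB, SFTPC and SFTPD reached at most 0.774 CPM and SCGB3A2 0.639 CPM. SCGB3A1 and SCGB1A1, the club cell secretoglobin, were at 0. Blood cell markers summed to between 1.72 and 5.81 CPM. Endothelial and fibroblast markers summed to between 28.9 and 61 CPM, nearly all of it COL1A1. CDX2, the intestinal transcription factor, was at 0. Of 6 tested lung markers, 1 was called lower in C1 by the blocked test and 0 in C2, beside 4.07% and 2.59% of all genes. NAPSA, an aspartic protease of alveolar cells, fell by 1.04 in C1 (edgeR adjusted p = 0.033) and stood at -0.79 in C2 (adjusted p = 0.11). It was not called without the block, and 2 of 6 fits that left out a library kept the C1 call. Of 16 gut epithelium markers, 2 passed the filter. A gene low in WT can pass it through the clones, so that both were called is no support by itself. The blocked test put both higher in each clone: MUC13, a membrane mucin, by 2.54 in C1 (edgeR adjusted p = 0.0027) and 3.23 in C2 (adjusted p = 0.00054), and VIL1 (villin, of microvilli) by 1.52 in C1 (adjusted p = 0.023) and 1.89 in C2 (adjusted p = 0.0088). Their levels were low, at most 4.35 CPM for MUC13 and 7.77 CPM for VIL1, and the whole gut list summed to 7.42 CPM in C1, 11.8 CPM in C2 and 2.83 CPM in WT in replicate 2, and to 4.8 CPM in C1, 5.3 CPM in C2 and 0.959 CPM in WT in replicate 1. Neither was called without the block, and with single libraries left out of the blocked fit MUC13 kept its call in 5 of 6 fits in C1 and 4 in C2, and VIL1 in 2 and 3. Between replicates VIL1 rose by 3.26 (adjusted p = 9.9e-06) and MUC13 fell by 0.90 (adjusted p = 0.047). The part of these genes in the CEACAM values was not tested.

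The genes whose levels ran most like each member were listed by Pearson r over the 6 libraries. They came from 345 protein-coding genes with a mean log2 CPM of at least 1 and an SD of at least 1. The list is a description in which the libraries share group and replicate number. CEACAM6 ran most like PSG3 (0.995), MUC4, a membrane mucin (0.993), CREB3L1, a transcription factor of the secretory pathway (0.979), CALB2 (0.967) and HEPH (0.954). CEACAM5 ran most like MAN1C1 (0.992), SLC44A4 (0.987), B3GNT6 (0.985), ST6GALNAC1 (0.972) and ACKR2 (0.97). MAN1C1, B3GNT6 and ST6GALNAC1 encode enzymes that trim or extend protein sugars. CEACAM1 ran most like AZGP1 (0.93) and ACKR2 (0.915), followed by ENTPD8, AOAH and SLC44A4, and CEACAM19 most like KLK8 (0.996), CERS4 (0.98), LDB3 (0.977), ITGB3 (0.974) and SYT7 (0.971). Between members, r was 0.92 for CEACAM5 with CEACAM6, 0.913 for CEACAM5 with CEACAM19, 0.869 for CEACAM5 with CEACAM1 and 0.697 for CEACAM6 with CEACAM19.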

How the data were processed

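RNA of 6 H358 libraries was read as 50-nt pairs, per the labels' protocols. The authors deposited a table of unnormalized read counts for each gene in the 6 libraries, with 0 further columns of samples; cutadapt 1.6, STAR 2.5.0a, HTSeq 0.5.3 and the build hg19 are named per the submitters' processing notes, and the annotation release is not given in the sources used here. Totals that name no gene, 21.3% to 22.4% of the listed reads, were left out. Coordinates and sequences of hg19 were not used here: lengths, overlaps and shared stretches were computed from GENCODE 29 (GRCh38) and promoters from RefSeq (GRCh38.p14), which held 4 of the 5 genes; CEACAM19 was not matched.

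The analysis used edgeR 4.0.16 under R 4.3.3 (limma 3.58.1 loaded): filterByExpr left 17129 genes, libraries were scaled by TMM, and the robust quasi-likelihood F test (two-sided) was adjusted by Benjamini-Hochberg over all of them, with calls at an adjusted p below 0.05. All 6 libraries entered each fit, with 1 mean per group (3 residual degrees of freedom) or with the replicate number added as a block (2). The second fit also gave replicate 2 against replicate 1. Log2 CPM used a prior count of 2. Precision comes from 2 libraries per group, and the limit for a count of 0 is 3 counts and covers counting error only.

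Deviations of same-numbered libraries from their group means correlated across genes by 0.584 for C1 with WT, 0.634 for C2 with WT and 0.701 for C2 with C1. All exceed 0.1, which was taken as pairing. No label states it, and in groups of 2 the deviations of numbers 1 and 2 mirror each other.

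The members, gene lists and tests were chosen with earlier results of these data known, among them a list holding CEACAM5 and CEACAM6 that was higher in replicate 2. Named genes are all members, every other tested CEACAM or PSG gene, up to 4 genes per list with the largest mean difference from WT, the nearest tested gene on each side of a member outside the family, and the 5 genes most alike by Pearson r. Alternatives were the block, other size factors, no filter, DESeq2 1.42.0, the 4 related genes summed, and leaving out each library.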

Additional observations from a re-analysis of the deposited data

How the results depend on the processing

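The replicate block decided most calls, and why was not tested. Calls between C1 and WT numbered 2 without it and 1204 with it, 296 with no filter on low counts and 270 by DESeq2; between C2 and WT they numbered 2, and 777, 209 and 209 under the same alternatives. Of the 4 tested members, 0 were called without the block, 2 in C1 and 3 in C2 with it, and 1 in C1 and 1 in C2 by DESeq2. Of the 7 other family genes, 0 were called without the block, 3 in C1 and 4 in C2 with it, 2 and 3 with no filter, and 2 and 4 by DESeq2. DESeq2 size factors in edgeR changed none of these counts of members or family genes. Leaving out each library in turn without the block gave 0 to 1 calls in C1, 0 in C2, 0 members in both, and for replicate 2 against replicate 1 617 to 4849 calls against 4229, with 2 to 4 members and 0 to 1 other family genes; the lowest values came without a C2 library. Leaving out libraries together with the replicate block, chosen after seeing the data and with 1 residual degree of freedom, gave 2 to 3 members in C1 and 0 to 3 in C2, and 1 to 5 other family genes in C1 and 0 to 5 in C2. For C2 against C1 the same fits gave 0 to 1 members and 0 to 1 other family genes. Without the block, the direction of C2 against C1 turned when single libraries were left out. CEACAM5 ran from -2.11 to 0.84, CEACAM6 from -1.12 to 0.16, CEACAM1 from -0.20 to 0.71 and CEACAM19 from -0.62 to 0.35. With the block, CEACAM5 ran from -0.8 to -0.42 and CEACAM6 from -0.67 to -0.34, so neither turned. CEACAM1, from -0.04 to 0.54, and CEACAM19, from -0.28 to 0.09, still did. Against WT without the block, CEACAM5 ran from 1.36 to 3.88 in C1 and 0.61 to 3.35 in C2. CEACAM6 ran from 2.41 to 3.57 and 1.98 to 2.97, and CEACAM1 from 0.33 to 0.84 and 0.36 to 1.27. CEACAM19 ran from 0.03 to 0.74 in C1 and -0.20 to 0.77 in C2, turning below 0 without replicate 2 of C2. With the block, CEACAM5 ran from 2.45 to 2.83 in C1 and 1.84 to 2.23 in C2, and CEACAM6 from 2.85 to 3.2 and 2.36 to 2.71. CEACAM1 then ran from 0.31 to 0.86 and 0.54 to 1.13, and CEACAM19 from 0.22 to 0.57 and 0.12 to 0.5. A group left with 1 library is assumed to vary like the others. With the counts of the 4 related genes summed, the difference from WT was 2.21 in C1 and 1.85 in C2. In that sum replicate 2 exceeded replicate 1 by 1.24, and C2 against C1 was -0.37. The sum covers reads given to any of these genes and does not recover reads in the totals that name no gene. Depth limits CEACAM7 to the floor given for a count of 0.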
